A study of Mus musculus with 52 samples.

Results

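Spinal cord and cerebral cortex were the 2 tissues of the series with high levels of vector RNA. Reported here are the change of their RNA with vector treatment, averaged over both, and the difference of that change between them. The samples were chosen by title: all poly(A) RNA libraries of cord and cortex from mice transgenic for the C71G mutant of human PFN1, given either vehicle or the AAV vector. They are 24 of the 52 libraries, 6 in each of 4 groups: cord with vehicle, cord with vector, cortex with vehicle and cortex with vector. The vector encodes an artificial microRNA (amiR) against mouse Atxn2. All 24 libraries carry the transgene, so what treatment does in mice without it was not measured, and no group received a vector without the amiR. Effects of the amiR, of the capsid and of the rest of the vector therefore cannot be told apart. Each group held 3 females and 3 males, 4 mice of 36 weeks and 2 of 38 or 39 weeks. The older mice of the cord groups were all females. Wild-type FVB/NJ mice given vehicle (6 cord and 5 cortex libraries, all 36 weeks) are quoted for their levels only. The promoters of the transgene and of the vector and the capsid are not given in the sources used here, nor which tissues came from the same mouse.

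Ataxin-2 (Atxn2) is an RNA-binding protein of stress granules, and lowering it is studied as a treatment for amyotrophic lateral sclerosis (ALS). Profilin-1 (PFN1) binds actin monomers, and its mutants cause a familial form of ALS. In mutant mice the disease is centred on spinal motor neurons, with activated microglia and astrocytes around them. An artificial microRNA is processed by the cell's own microRNA machinery and guides its cleavage complex to the target transcript. The average of the 2 tissues asks which transcripts moved with the vector wherever it was present. The difference asks which of them moved with the tissue.

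Total counts per library ran from 67.8 M to 96.9 M. Markers matched the tissue labels: transcripts of 15 cortical excitatory neuron genes summed to 4960 to 7408 CPM (counts relative to the library total, after TMM scaling) in cortex and 330 to 521 in cord, and 21 motor neuron genes to 869 to 1488 in cord and 215 to 296 in cortex. For 4 cord libraries (vehicle 5 and 6, vector 1 and 2) the name of the library contradicts its title; titles were followed, and the vector reads of all 4 were as titled. Vector replicate 2 of cord and vector replicate 3 of cortex lay farthest from the other libraries of their tissue on the first principal component. Changes are log2 values, treated over vehicle, from edgeR's quasi-likelihood model of the 24 libraries with sex within each tissue. P-values are adjusted over the 20953 genes tested (Benjamini-Hochberg, threshold 0.05). Nothing in the labels says whether replicates were separate animals, so p-values measure the spread between these samples. "Rose" and "fell" are used of genes past the threshold.

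Vector RNA was abundant in both tissues. The woodchuck element carried by the vector (WPRE) was read at 52.0 ± 15.0 CPM in treated cord and 41.7 ± 15.2 CPM in treated cortex (SD, n = 6 each, unscaled), and the miRE microRNA backbone at 12.8 ± 3.60 and 9.39 ± 3.46 CPM. Vehicle libraries held no WPRE count but for 1 count in 1 cortex library. In treated muscle, where 6 libraries of the same design were made, WPRE averaged 0.0303 CPM.

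Atxn2, the target (GRCm38 chr5:121711337-121816493, plus strand), fell on average and in cord; in cortex alone its adjusted p was 0.087. In cord, vehicle libraries lay at 100.5 to 108.1 CPM (median 103.8) and treated libraries at 68.9 to 71.3 (median 70.4). In cortex, vehicle libraries lay at 87.8 to 111.7 CPM (median 104.4) and treated ones at 73.3 to 93.7 (median 86.6). The groups did not overlap in cord and did overlap in cortex, where the highest treated library lay above the lowest vehicle library. The average change was −0.41 (SE 0.04, adjusted p = 5.49e-05), from −0.55 in cord and −0.26 in cortex. On unscaled CPM the average fell by 26.7% (exact permutation test within tissues, two-sided, p = 4.69e-06, with 2.34e-06 the smallest possible p; 1.41e-05 adjusted over 3 genes). Cord minus cortex was −0.28 (95% interval −0.47 to −0.10), short of the threshold across all genes (adjusted p = 0.277). Atxn2 levels in wild-type mice averaged 123.9 CPM in cord and 105.7 in cortex.

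Neither profilin passed the threshold for the average in the model of all genes. Mouse Pfn1 differed by −0.02 (SE 0.05, adjusted p = 0.913). The human PFN1 transgene, read at 609 to 681 CPM in vehicle cord and 558 to 1172 in treated cord, and at 798 to 1200 and 1025 to 1607 in cortex, differed by 0.32 (SE 0.11, adjusted p = 0.107). On unscaled CPM its average was 19.7% higher (exact permutation test, p = 0.027; 0.0405 adjusted over 3 genes). Its treated median lay above the vehicle median in each tissue, and the groups overlapped in both.

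**Figure D1:**
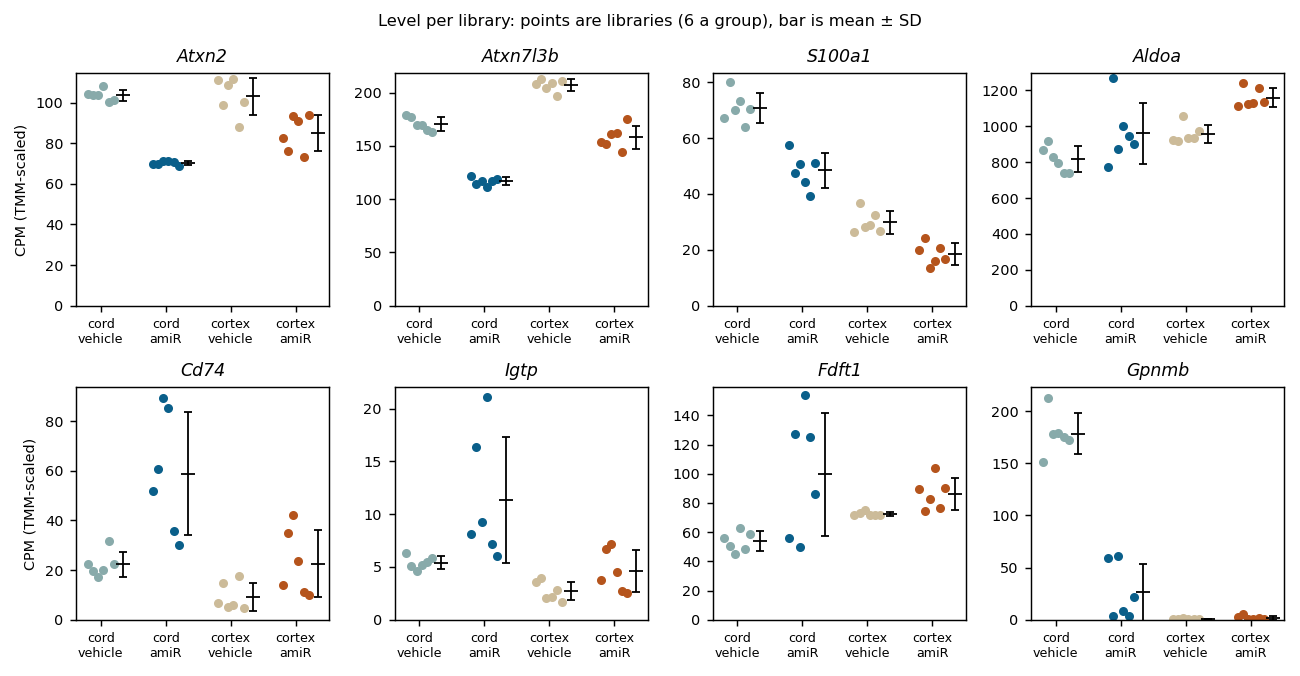
CPM after TMM scaling of 8 genes in each of the 24 libraries, by group; each point is a library and the bar beside it is the mean ± SD of 6. Atxn2, Atxn7l3b and S100a1 are lower in treated libraries of both tissues, and Cd74 and Igtp spread widely upward in treated libraries. Fdft1 rises in 4 of 6 treated cord libraries. Gpnmb is highest in vehicle cord, spans 3.29 to 60.6 CPM in treated cord and reaches at most 5.01 CPM in cortex.

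On average over both tissues, 427 of 20953 genes changed (2.04%): 318 rose (1.52%) and 109 fell (0.520%). The changes were small. The median change was 0.20 among the genes that rose and −0.31 among those that fell, beside −0.00 over all genes tested, and 51 of the 427 changed by more than 1.5-fold. Taken tissue by tissue in the same model, 247 genes passed the threshold in cord (1.18%) and 1 in cortex (0.00477%), Atxn7l3b; 128 of the 427 were among the cord genes, and 299 passed in neither tissue alone. Of the 427, 292 (1.39% of genes tested, 231 higher and 61 lower) moved the same way in each tissue with an unadjusted p under 0.05 in both, 91 had such a p in cord only and 44 in cortex only, and 6 had opposite signs. The change was the larger in cord for 283.

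The split of rises and falls depended on scaling. With total counts in place of TMM factors, 205 genes were called, 67 higher and 138 lower, and the median of all genes was −0.05 in place of −0.00. Small changes in abundant transcripts, among them those of glycolysis below, are therefore given relative to TMM scaling. The count also changed when libraries were left out. It was 23 without the 4 cord libraries of conflicting labels and 3 without the mice older than 36 weeks. It was 122 without the most variable library of each tissue (vector replicate 2 in cord, vehicle replicate 2 in cortex) and 1147 without cord vector replicate 1. Smaller groups also lower the power of the test, and the cause of these shifts was not tested. The 3 genes called without the older mice were Atxn2, Atxn7l3b and Dennd1a, which were called in 41 of the 42 alternative analyses.

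**Figure D2:**
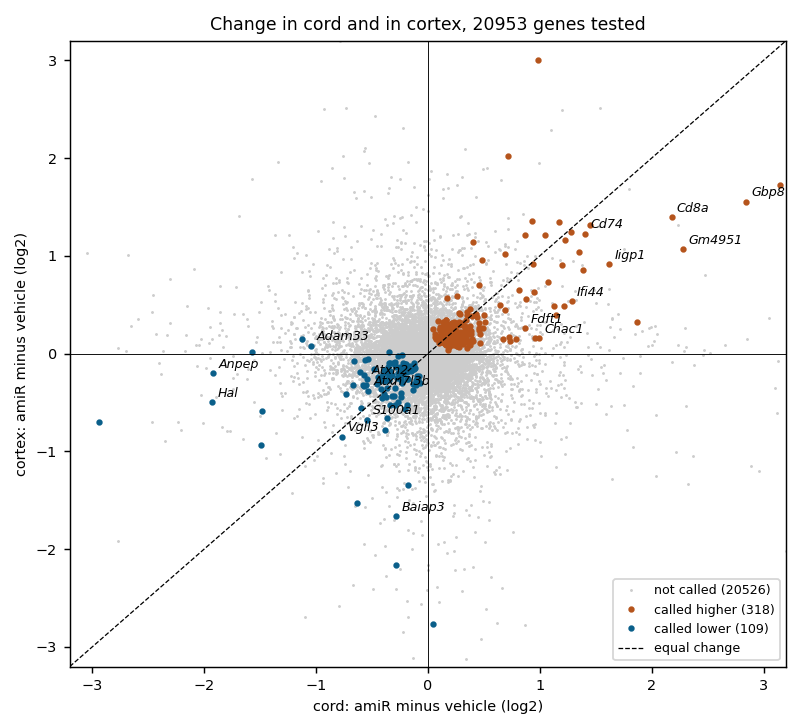
Log2 change with treatment in cord (horizontal) and in cortex (vertical) for the 20953 genes tested; colours mark the 318 genes called higher and the 109 called lower on average, the dashed line is equal change, and 7 called genes lie outside the axes. Most called genes lie near the origin in the quadrants where both tissues moved the same way; Anpep, Hal and Adam33 lie along the cord axis and Baiap3 along the cortex axis.

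Of all genes tested, 8 had treated libraries entirely apart from vehicle libraries in cord and in cortex, in the same direction (0.0382%): Coq3, an enzyme of ubiquinone synthesis, was higher, and Atxn7l3b, Dennd1a, S100a1, Cers1, Arl10, Nfia and Tpra1 were lower. Among these, Coq3, Nfia and Tpra1 were named after their values were seen. All 8 were called for the average.

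Atxn7l3b (chr10:112925430-112929001, minus strand), a relative of a SAGA complex subunit, had the smallest p of all genes. It was read at 163 to 179 CPM (median 170) in vehicle cord, 111 to 122 (median 117) in treated cord, 197 to 213 (median 208) in vehicle cortex and 144 to 175 (median 158) in treated cortex. The average change was −0.46 (SE 0.03, adjusted p = 1.88e-08), with −0.53 in cord and −0.38 in cortex. Cord minus cortex was −0.15 (95% interval −0.28 to −0.03) and missed the threshold (adjusted p = 0.412). Treated and vehicle libraries were apart in both tissues, whereas those of Atxn2 overlapped in cortex.

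Dennd1a (chr2:37798991-38287390, minus strand), a guanine nucleotide exchange factor for Rab35 in endocytosis, lay at 39.9 to 45.7 CPM (median 42.1) in vehicle cord, 30.6 to 34.2 (median 32.2) in treated cord, 60.9 to 74.8 (median 65.0) in vehicle cortex and 51.6 to 60.5 (median 53.7) in treated cortex. Its average change was −0.33 (SE 0.04, adjusted p = 4.36e-05). S100a1, a calcium-binding protein, lay at 64.1 to 79.9 CPM in vehicle cord and 39.3 to 57.6 in treated cord, and at 26.4 to 36.7 and 13.6 to 24.1 in cortex, an average change of −0.61 (SE 0.08, adjusted p = 0.000457). Its value was −0.54 in cord and −0.68 in cortex, and the interval of the difference held 0 (−0.19 to 0.47). Cers1, the ceramide synthase of neurons, lay at 28.1 to 35.2 CPM and 17.3 to 23.8 in cord and at 43.2 to 54.1 and 32.9 to 41.9 in cortex, an average of −0.44 (SE 0.06, adjusted p = 0.000353).

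Also called, with an unadjusted p under 0.05 in each tissue, were Aldh18a1, which makes the precursor of proline (−0.31), the lipid phosphatase Plpp3 (−0.31), the retinoid X receptor Rxra (−0.26) and Arl10 (−0.40). The differences between tissues of these 4 ran from −0.19 to 0.02, and each interval lay within 1.5-fold either way. Among the 10 largest falls were also Vgll3, a transcription cofactor (−0.81), Bean1 (−0.50), Rarres1 (−0.58) and Tmem273 (−0.57). Vgll3 spanned 1.87 to 7.46 CPM in vehicle cord but 2.30 to 2.67 in treated cord, and its cord groups overlapped.

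Of 18 interferon-inducible GTPase genes tested, 7 rose and none fell. These proteins (guanylate-binding proteins and immunity-related GTPases) gather on the membranes of intracellular pathogens, and their genes are classic targets of interferon gamma. All 7 also had an unadjusted p under 0.05 in each tissue, and all 18 changes lay above 0 in both, with medians of 0.77 in cord and 0.54 in cortex beside 0.01 and 0 over all genes. The letters of the interferon-stimulated response element (ISRE: TTTC, any 2 bases, TTTC, on either strand) were found in the 300 bases around the start (250 before, 50 after) of 10 of the 11 GTPase genes with a RefSeq promoter (GRCm38.p6), beside 3.76% of tested genes matched (13751) and 3.99% of all symbols. The interferon-gamma-activated sequence (GAS, TTCNNNGAA) was found in 6 of the 11, beside 8.42%. Among all 226 matched genes that rose on average, 12 held the ISRE (5.31%) and 22 the GAS (9.73%). The shares were similar among the 80 matched genes that fell, where 4 held the ISRE (5%) and 7 the GAS (8.75%). A match is a description of letters, not a site or a cause.

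The promoters of 4 genes are shown because the genes rose on average and hold the ISRE in the 250 bases upstream; they were chosen after the values were seen. Each runs 5′ to 3′ along the gene's strand up to the base before its RefSeq start, from RefSeq GRCm38.p6, with the ISRE letters in capitals. They belong to Igtp (chr11:58199306-58199555, plus strand), Irgm1 (chr11:48871421-48871670, minus strand, 2 overlapping matches), Tgtp1 (chr11:48992247-48992496, minus strand) and, as a chemokine for comparison, Cxcl10 (chr5:92348890-92349139, minus strand).
Igtp: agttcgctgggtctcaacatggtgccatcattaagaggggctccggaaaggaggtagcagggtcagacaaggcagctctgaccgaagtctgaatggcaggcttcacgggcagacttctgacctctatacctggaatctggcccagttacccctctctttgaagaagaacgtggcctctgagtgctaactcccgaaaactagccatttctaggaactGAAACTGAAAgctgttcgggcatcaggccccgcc
Irgm1: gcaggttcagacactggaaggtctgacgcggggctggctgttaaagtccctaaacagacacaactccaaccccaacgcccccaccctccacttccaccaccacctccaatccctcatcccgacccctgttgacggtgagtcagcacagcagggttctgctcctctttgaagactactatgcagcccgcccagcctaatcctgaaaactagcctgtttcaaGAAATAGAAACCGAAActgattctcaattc
Tgtp1: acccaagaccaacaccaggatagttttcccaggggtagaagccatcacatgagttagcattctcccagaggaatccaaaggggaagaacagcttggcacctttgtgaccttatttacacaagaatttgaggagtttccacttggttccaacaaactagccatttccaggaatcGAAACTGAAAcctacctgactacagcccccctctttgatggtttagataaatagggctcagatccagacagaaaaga
Cxcl10: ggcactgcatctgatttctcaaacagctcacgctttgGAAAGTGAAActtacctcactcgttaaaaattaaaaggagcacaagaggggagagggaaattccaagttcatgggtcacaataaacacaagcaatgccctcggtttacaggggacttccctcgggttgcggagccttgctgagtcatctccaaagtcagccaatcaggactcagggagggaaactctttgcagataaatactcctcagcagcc

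Igtp, an immunity-related GTPase, was read at 4.58 to 6.34 CPM (median 5.28) in vehicle cord, 6.07 to 21.1 (median 8.72) in treated cord, 1.71 to 3.92 (median 2.50) in vehicle cortex and 2.53 to 7.19 (median 4.14) in treated cortex. The groups overlapped in both tissues. Its average change was 0.91 (SE 0.19, adjusted p = 0.0186), with 1.08 in cord and 0.73 in cortex. Tgtp1 rose by 1.12 (adjusted p = 0.0417) and Irgm1, whose product regulates the other GTPases, by 0.41 (adjusted p = 0.0176). The call of Tgtp1 held in 13 of the 42 alternatives, beside 33 for Igtp. Gbp8, a guanylate-binding protein, rose by 2.2 (SE 0.41, adjusted p = 0.012), with cord libraries at 0.191 to 0.640 CPM and 0.605 to 5.94 and cortex libraries at 0.131 to 1.73 and 0.455 to 4.72. Iigp1 rose by 1.27, Gm4951 by 1.67, Ifi47 by 0.79 and, outside the list, Gbp10 by 1.2. These families have near-identical copies, and how reads were shared among them is uncertain. Of the list, 1 was called in place of 7 without the 4 cord libraries of conflicting labels, 0 without the older mice and 0 in males only, where 478 genes were called in all and 152 of them were among the 427, while its median stayed between 0.37 and 0.75 over the 42 alternatives.

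MHC class II molecules present antigen to helper T cells. Of 11 genes of this list tested, 4 rose and none fell, with medians of 0.56 in cord and 0.47 in cortex. Cd74, the invariant chain that escorts class II molecules, lay at 17.2 to 31.8 CPM (median 21.1) in vehicle cord and 29.9 to 89.4 (median 56.3) in treated cord, and at 4.88 to 17.5 (median 6.34) and 10 to 42.2 (median 18.7) in cortex. Its change was 1.32 (SE 0.27, adjusted p = 0.0177), nearly equal in cord (1.41) and cortex (1.23), but the interval of the difference was wide (−0.94 to 1.3). The class II chains H2-Aa (1.38) and H2-Ab1 (1.27) and their transactivator Ciita (1.05) rose too, as did, among genes of class I, H2-Q7 (0.93, one of several near-identical genes) and the class I transactivator Nlrc5 (0.72). Wild-type means were 8.18 CPM of Cd74 in cord and 6.51 in cortex. The summed level of the list went the other way in cord, at 394 to 507 CPM with vehicle (median 439) and 244 to 516 with vector (median 361), and was 79.0 to 115 and 84.9 to 166 in cortex. Its most abundant member, the protease Ctss, had −0.55 in cord and 0.13 in cortex (average −0.21, adjusted p = 0.404), and 3 of the 11 cord values lay below 0. No class II gene was called without the older mice, without the 4 cord libraries or in males only, where the medians of the list were 0.28, 0.45 and 0.29.

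Of 35 other interferon-stimulated genes, 3 rose, among them Oasl2 (0.43) and Ifi44 (0.91). Across genes tested, 390 had no overlap between the cord groups (1.86%) and 109 none between the cortex groups (0.520%). Ifi44 did not overlap between cord groups (0.574 to 0.960 CPM in vehicle, 1.42 to 2.82 in treated libraries) and did overlap in cortex (0.492 to 0.873 and 0.637 to 1.2). Its rise was 1.28 in cord and 0.54 in cortex, and the interval of the difference lay above 0 (0.27 to 1.22), without passing across all genes (adjusted p = 0.27). The median of the list was 0.29 in cord and 0.06 in cortex, and 30 of 35 differences lay above 0.

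A few T cell and chemokine transcripts, all scarce, rose on average. Of 19 T cell genes, 3 rose: Cd8a, a coreceptor of cytotoxic T cells (1.79), Cd3g, a chain of the T cell receptor complex (1.04), and the chemokine Ccl5 (1.19). Cd8a lay at 0.0541 to 0.121 CPM in vehicle cord and 0.224 to 0.640 in treated cord, with no overlap, and at 0.0123 to 0.102 and 0.0294 to 0.250 in cortex. Summed over 22 T cell genes, vehicle and treated cord held 5.83 to 7.81 and 7.43 to 9.38 CPM, and vehicle and treated cortex 5.33 to 18.7 and 8.12 to 25.9. No T cell gene was called without the 4 cord libraries or without the older mice. DESeq2 gave no adjusted p for these 3 genes, so it could neither keep nor lose their calls. In bulk tissue, more cells of a type and more RNA per cell cannot be told apart.

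Of 16 chemokines, 4 rose and 1 fell. Cxcl9, which attracts activated T cells, was read at 0 to 0.0423 CPM in vehicle cortex and 0.118 to 0.630 in treated cortex, and at 0.0337 to 0.478 and 0.302 to 2.52 in cord, so that the groups were apart in cortex only. Its fitted change of 3.4 (adjusted p = 0.00118) depends on how counts of 0 are handled. Cxcl10, whose promoter is printed with those of the GTPases, rose by 1.26, with cord libraries at 0.312 to 0.829 and 0.969 to 2.09 CPM and cortex libraries at 0.0291 to 0.310 and 0.176 to 0.754. Ccl8 rose by 1.37, and Cxcl12, a homeostatic chemokine, fell by 0.38 on the log2 scale. Ighg2c, an immunoglobulin heavy chain, was the 1 gene of 11 B and plasma cell genes to rise (2.18). Treated cortex libraries held 0.228 to 2.27 CPM of it (median 0.317) and vehicle cortex libraries 0 to 0.117, without overlap; cord libraries held 0.0131 to 0.319 and 0 to 0.218, with overlap. The call held in 9 of 40 alternatives, over which the value ran from 1.04 to 3.25.

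Glycolysis was the list with the most genes called on average. Of 19 tested, 9 rose and none fell, and all 9 moved the same way in each tissue; the medians were 0.21 in cord and 0.19 in cortex, and 16 of 19 lay above 0 in both. Aldoa, fructose-bisphosphate aldolase, was read at 738 to 920 CPM (median 814) in vehicle cord and 775 to 1269 (median 923) in treated cord, and at 920 to 1055 (median 935) and 1113 to 1242 (median 1132) in cortex. The cortex groups did not overlap and the cord groups did. The changes ran from 0.17 for Pfkm, muscle-type phosphofructokinase, through 0.19 for Hk1, the brain hexokinase, and 0.24 for Tpi1 to 0.27 for Aldoa. The difference between tissues was −0.04 for Hk1 (95% interval −0.20 to 0.13) and 0.09 for Tpi1 (−0.12 to 0.30), both inside 1.5-fold. This group depended on scaling: with total counts in place of TMM 1 of 19 was called, the median being 0.15, and none was called without the 4 cord libraries, without the older mice or without the most variable libraries.

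Cholesterol synthesis had its larger values in cord. Of 25 genes, 5 rose on average and none of the 5 passed in both tissues. In cord 11 passed, all 11 higher, beside 132 higher of all 20953 genes tested. None passed in cortex. The medians were 0.63 in cord and 0.08 in cortex, and 24 of 25 differences lay above 0. No difference of the list passed across all genes (smallest adjusted p = 0.188). Fdft1, squalene synthase, lay at 45.3 to 63.2 CPM (median 53.2) in vehicle cord and 49.8 to 154 (median 106) in treated cord, and at 71.6 to 75.2 (median 71.8) and 74.8 to 104 (median 86.1) in cortex. Treated cord libraries 1 and 3 lay among the vehicle libraries and the other 4 above them. Its change was 0.57 (SE 0.13, adjusted p = 0.0229), 0.87 in cord and 0.26 in cortex, with a difference of 0.61 (95% interval 0.09 to 1.13, adjusted p = 0.44). Acat2 (0.41), Sqle, squalene epoxidase (0.47), and Fdps (0.45) also rose. The call held in 37 of the 42 alternatives for Acat2, 32 for Fdft1 and 10 for Sqle. Wild-type cord averaged 123 CPM of Fdft1 and wild-type cortex 73.3. The sterol regulatory element letters (TCACNCCAC) were found in 1 of 17 matched promoters of the list, beside 1.41% of tested genes. Without the 4 cord libraries the median difference of the list was 0.21 in place of 0.55. Over the 42 alternatives that median ran from −0.12 to 0.74, so its sign was not the same in all.

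Fewer genes rose in the lists of mitochondrial respiration and stress response. Of 33 nuclear genes of oxidative phosphorylation 3 rose (Ndufa9 0.24, Atp5a1 0.24, Atp5c1 0.19), and all 33 differences lay above 0, with medians of 0.25 in cord and 0.08 in cortex. Of the 42 alternatives, the call held in 12 for Ndufa9, 26 for Atp5a1 and 20 for Atp5c1. With total counts in place of TMM no gene of this list was called, whereas DESeq2 called 13 higher. The share of counts on the mitochondrial genome was 6.86 to 8.43% in vehicle cord and 7.73 to 11.7% in treated cord, and 7.38 to 11% and 6.78 to 9.83% in cortex. Of 23 targets of ATF4, the transcription factor of the integrated stress response, 4 rose: Asns, asparagine synthetase (0.31), Aars (0.23), Chac1, which degrades glutathione (0.58), and the hormone Fgf21 (3.13). Chac1 lay at 3.68 to 5.13 CPM in vehicle cord and 5.52 to 13.2 in treated cord, without overlap, and at 2.07 to 3.27 and 3.06 to 3.31 in cortex. Fgf21 was read at 0 to 0.0866 CPM in vehicle cord and 0.345 to 3.87 in treated cord and at no more than 0.0588 CPM in cortex, so its average rests mainly on cord. Of 27 lysosomal genes, 3 rose on average, all subunits of the proton pump: Atp6v1h (0.21), Atp6v0d1 (0.16) and Atp6v1a (0.24). In cord, 6 others of that list fell, beside 115 of all 20953 genes tested. Of the 42 alternatives, the call held in 30 for Atp6v1h, 25 for Atp6v0d1 and 8 for Atp6v1a. Without the older mice, no gene of the oxidative phosphorylation, ATF4 or lysosome lists was called on average. The same held without the 4 cord libraries of conflicting labels and without the most variable library of each tissue.

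Axonal and synaptic genes gave small changes in both directions. Stmn2, a microtubule regulator of axons lost in ALS motor neurons, rose by 0.30 (SE 0.05, adjusted p = 0.012). Cord libraries lay at 243 to 290 CPM with vehicle and 274 to 396 with vector and cortex libraries at 218 to 285 and 269 to 299, and the interval of the difference lay inside 1.5-fold (−0.13 to 0.31). Of 16 genes of neurofilaments and axonal transport, Stmn2, Stmn3 (0.20) and Uchl1, a neuronal ubiquitin hydrolase (0.33), rose. Of 20 synaptic genes, Sv2b (0.45) and Syn1 (0.23), both of synaptic vesicles, rose, and Shank3, a scaffold of the postsynaptic density (−0.30), and Cplx1 (−0.25) fell. Prph, an intermediate filament of motor neurons, was the 1 of 21 motor neuron genes called (0.85, adjusted p = 0.0425): cord libraries lay at 10.9 to 36.6 CPM with vehicle and 39.8 to 112 with vector, without overlap, and cortex libraries at 0.495 to 1.97 and 0.278 to 3.39. Among 26 ALS-linked genes 3 rose, Stmn2, Fig4 (0.22) and Vcp (0.15), and among 15 partners of Atxn2 only G3bp2, a stress granule protein (0.22), rose beside the fall of Atxn2 itself. None of 17 genes of the small RNA machinery was called. Of the 42 alternatives, the call held in 38 for Stmn2, 37 for Uchl1, 35 for Sv2b, 33 for Fig4 and 29 for Shank3. It held in 21 for G3bp2, 16 for Vcp, 15 for Stmn3, 12 for Syn1 and 11 for Prph.

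**Figure D3:**
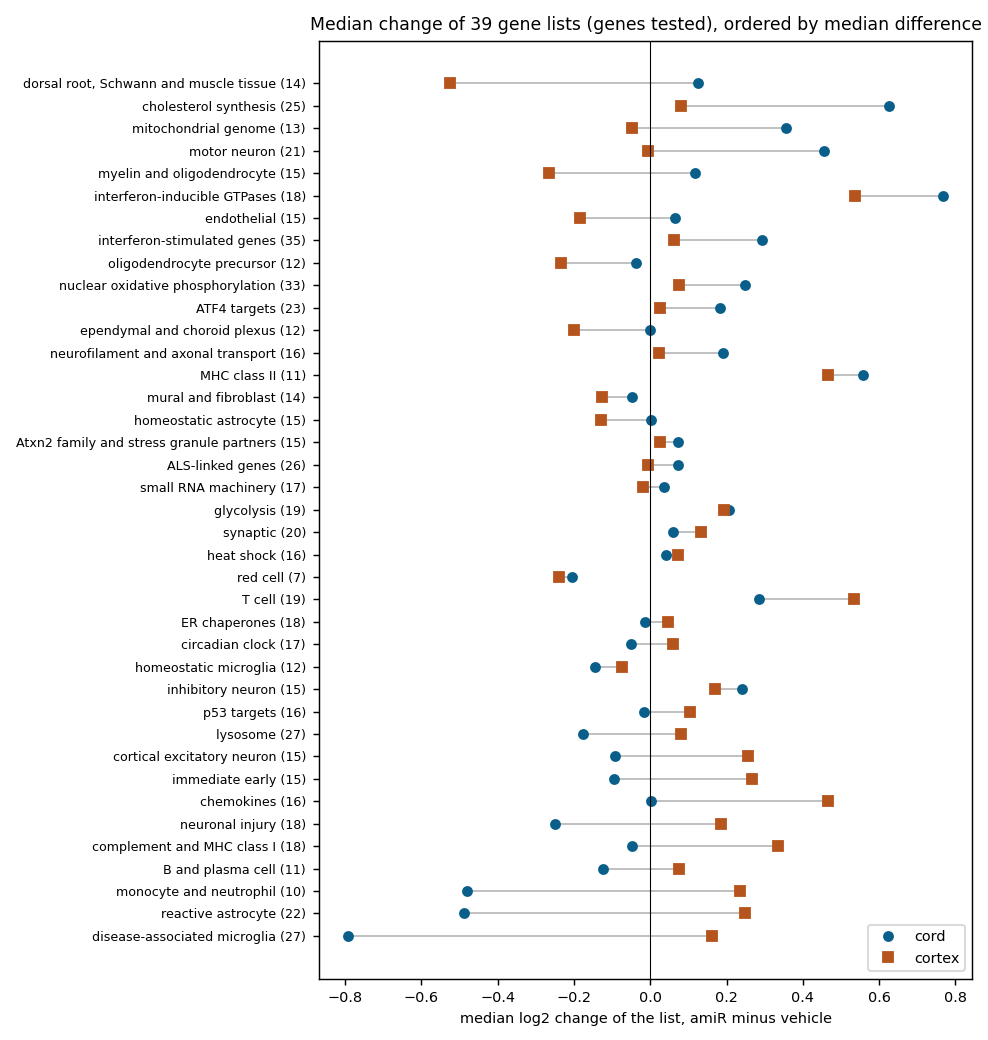
Median log2 change of each of 39 gene lists in cord (circles) and cortex (squares), with the number of genes tested in brackets, ordered by the median of the tissue difference. The 2 symbols nearly coincide for glycolysis, lie on the same side of 0 for the interferon-inducible GTPases, MHC class II and T cell lists, and lie on opposite sides for disease-associated microglia and reactive astrocytes.

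The difference of the tissues was called for 1 gene of 20953 (0.00477%), while 2051 had an unadjusted p under 0.05. DESeq2 called 144 (43 above 0, 101 below) and limma voom none. Adam33 (chr2:131050591-131063814, minus strand), a membrane metalloprotease, lay at 6.37 to 10.7 CPM (median 8.33) in vehicle cord, 2.96 to 6.07 (median 4.00) in treated cord, 3.37 to 5.78 (median 4.92) in vehicle cortex and 3.70 to 6.49 (median 5.35) in treated cortex. Cord groups were apart and cortex groups overlapped. The change was −1.04 in cord and 0.08 in cortex, a difference of −1.12 (SE 0.18, 95% interval −1.49 to −0.76, adjusted p = 0.0482), and wild-type means were 3.73 CPM in cord and 4.69 in cortex. Over the 42 alternatives the difference ran from −1.31 to −0.59, and 16 of them called it. Next in order, and not called, were Tnfaip2 (−1.27, adjusted p = 0.078) and the tetraspanin Tspan17 (−0.58, adjusted p = 0.0863), both chosen after their values were seen.

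**Figure D4:**
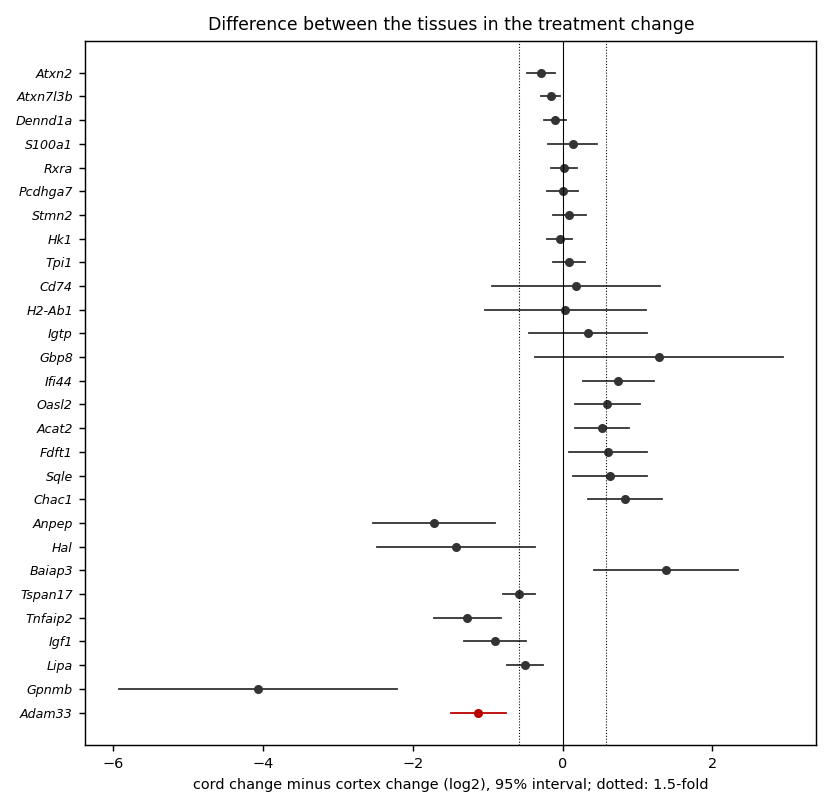
Cord change minus cortex change (log2) with its 95% interval for 28 genes; dotted lines mark 1.5-fold either way and Adam33, the 1 gene called, is in red. Intervals of Atxn7l3b, Dennd1a, Rxra, Stmn2, Hk1 and Tpi1 lie between the dotted lines, while those of Gbp8, Cd74 and H2-Ab1 reach beyond them on at least 1 side.

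How tightly the data bound the difference varied. Of the 427 genes called for the average, 345 had a 95% interval of the difference inside 1.5-fold either way, as had 11060 of all 20953 genes, and 64 had an interval that left out 0. For Gbp8, Cd74, H2-Ab1 and Cxcl9 the interval reached past 2-fold on at least 1 side, so that for these genes a difference of that size between cord and cortex cannot be seen or set aside.

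Of 27 microglial genes of the disease-associated state, 10 fell in cord, beside 115 of all 20953 genes tested. This state, known from models of neurodegeneration, is marked by lipid handling and lysosomal genes. No gene of the list passed in cortex, and all 27 differences lay below 0, with medians of −0.79 in cord, 0.16 in cortex and −0.90 for the difference; 17 differences had an unadjusted p under 0.05 and none passed across all genes (smallest adjusted p = 0.138). On average over the tissues 1 was called, Lyz1 (−1.82), a lysozyme. Gpnmb, a glycoprotein of lipid-laden microglia, chosen after its values were seen, lay at 152 to 212 CPM in vehicle cord, 3.29 to 60.6 in treated cord, 0.568 to 1.17 in vehicle cortex and 0.409 to 5.01 in treated cortex; its value was −3.04 in cord (adjusted p = 0.0214) and 1.02 in cortex, where the level was low in both arms. Igf1, a growth factor, had −0.79 in cord and 0.11 in cortex, and the lipase Lipa, of the lysosome list, −0.41 and 0.09; both passed in cord.

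The level of the list set treated cord libraries apart from each other. Summed over 27 genes, vehicle cord libraries held 10230 to 11718 CPM, and treated cord replicates 1 to 6 held 10240, 3754, 8529, 4187, 4013 and 7293. Wild-type cord held 2351 to 2791 CPM and the transgenic cortex groups 2046 to 2703. Treated cord replicate 1 thus lay within the vehicle range and the other 5 below it, though its Atxn2 level was that of the treated group. For Gpnmb (59.4 CPM), Lyz2, a macrophage lysozyme (551 CPM, vehicle at least 742), Igf1 (8.86 CPM, vehicle at least 9.62) and Lyz1, it lay below every vehicle cord library. Without that replicate, 9 of the 27 genes were called lower on average. That replicate is 1 of the 4 cord libraries of conflicting labels, and without all 4 no gene of the list was called on average. None was called either without the older mice, without the most variable library of each tissue or with RNA integrity as a covariate. DESeq2 called 3 lower and males only 2. The same replicate was the highest of its group for reactive astrocyte genes, at 7740 CPM beside 5814 to 6731 with vehicle; that list of 22 had medians of −0.49 in cord and 0.25 in cortex, and 19 differences below 0. Homeostatic microglial genes, 12 in number (median difference −0.08), summed to 779 to 982 CPM in vehicle cord and 504 to 951 in treated cord, and none was called.

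**Figure D5:**
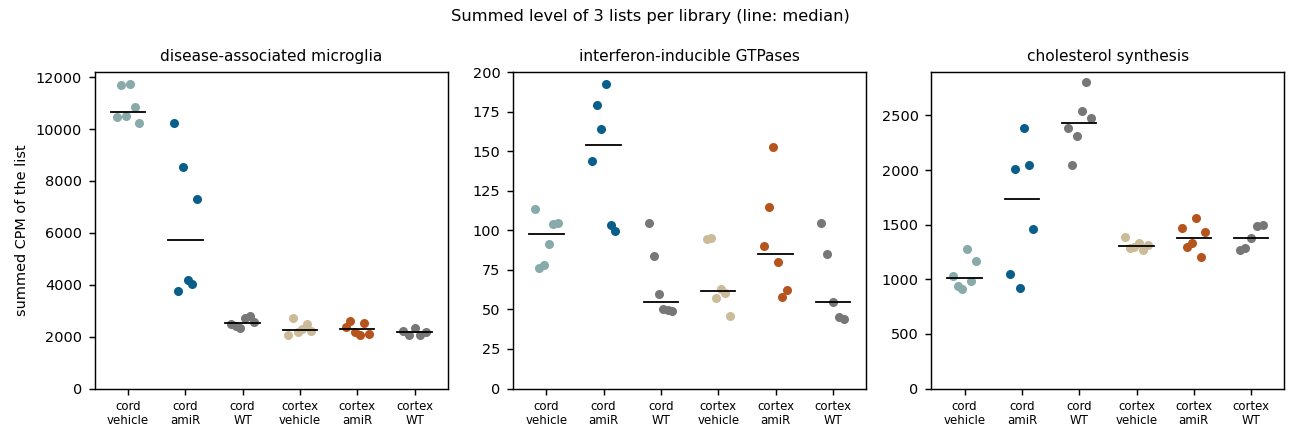
Summed CPM of 3 gene lists in each library of the transgenic groups and of wild-type mice (WT), with the group median as a line. The disease-associated microglia list lies at 10230 to 11718 CPM in vehicle cord, spreads over 3754 to 10240 in treated cord and is low elsewhere; the GTPase list is higher in treated libraries of both tissues with overlap; and the cholesterol list is spread in treated cord between the vehicle and wild-type ranges.

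Several falls of the average were mainly those of cord. Anpep, an aminopeptidase of myeloid and vascular cells, lay at 16.2 to 21.3 CPM in vehicle cord and 2.66 to 8.96 in treated cord, and at 4.57 to 11.9 and 3.82 to 8.75 in cortex; its change was −1.92 in cord and −0.20 in cortex (difference −1.72, interval −2.53 to −0.90, adjusted p = 0.14). Hal, histidine ammonia-lyase, fell in cord from 7.84 to 10.1 CPM to 0.591 to 4.82 (−1.93) and lay between 0.185 and 0.451 CPM in cortex (−0.50). Baiap3, a regulator of vesicle release, went the other way: its change was −0.28 in cord and −1.66 in cortex, where vehicle libraries spanned 6.48 to 42.6 CPM and treated ones 2.12 to 9.24. For all 3 the difference missed the threshold.

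Muscle, in which little vector RNA was read, was set beside the average in a model of 35 libraries of all 3 tissues. The average of cord and cortex differed from muscle for 726 of 21870 genes (3.32%), and 80 of the 427 genes were among them with the same sign. Atxn2 differed by 0.05 in muscle (SE 0.07, adjusted p = 0.771), and the average of cord and cortex minus muscle was −0.47 (adjusted p = 0.00184). On unscaled CPM, muscle Atxn2 averaged 66.0 with vehicle and 61.7 with vector, the other sign. The muscle values here are therefore given relative to TMM scaling. Atxn7l3b differed by −0.08 in muscle and S100a1 by 0.07, neither past the threshold. Cers1 (0.50), Rxra (0.36) and Dennd1a (0.18) rose in muscle, and Hk1 fell there (−0.39). For all 7 the average minus muscle passed the threshold.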

How the data were processed

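Poly(A) RNA of cord, cortex and muscle was sequenced as paired ends, per the labels' protocols. The deposited table holds expected counts per gene from RSEM, estimated by the authors; 6.98% of its values are not whole, and all were rounded to whole numbers. The submitters' processing notes name bcl2fastq 2.20, STAR 2.7.2d, RSEM 1.3.2, DESeq2 1.34.0, GRCm38 and GRCh38; the annotation release and the strand setting of the counting are not given in the sources used here. Symbols were found for 55141 of 55401 mouse gene IDs. Vector, transgene and spike-in rows took at most 0.167% of a library's counts.

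Low genes were filtered and libraries TMM-scaled; edgeR 4.0.16 (R 4.3.3) fitted quasi-likelihood models of the 24 libraries, and of 35 with muscle, with Benjamini-Hochberg adjustment. DESeq2 1.42.0 and limma 3.58.1 served as alternatives, and the scripts were tested on simulated data. Permutation tests used log2(CPM + 0.5). Levels are CPM after TMM scaling unless called unscaled.

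The members and the 39 gene lists were chosen with earlier results of these data known. Genes named were the 3 target and transgene genes, the 10 largest called rises and falls with a mean of at least 1 CPM, the 10 called in both tissues with the smallest larger p, and at most 3 called genes from every list. Aars, Aldoa, Ccl8, Ciita, Coq3, Cplx1, Ctss, Cxcl12, Fdps, Gpnmb, Ifi47, Igf1, Irgm1, Lipa, Lyz2, Nfia, Tnfaip2, Tpra1 and Tspan17 were chosen after their values were seen. The symbol Aldoa belongs to 2 gene IDs, and the values are those of ENSMUSG00000030695. Some genes that the rule names are not reported here.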

Additional observations from a re-analysis of the deposited data

Results flagged for a closer look

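In 9 of 260 groups of libraries tested, 1 library stood apart from the rest of its group; the value given is its gap to the nearest library as a share of the group's range, and chance gives such a library in about 1 group in 20. In vehicle cord these were replicate 5 for Cd74 (0.635) and Ighg2c (0.742) and replicate 1 for Tgtp1 (0.863) and Lyz1 (0.738), each the highest. In treated cord, replicate 1 was the highest for Lyz1 (0.675) and Cxcl10 (0.738) and replicate 4 for Prph (0.674). In vehicle cortex, replicate 4 was the lowest for Chac1 (0.631). In treated cortex, replicate 2 was the highest for Ighg2c (0.910).

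The treatment change differed between tissues by a test of the difference itself for 17 named genes. For Adam33, cord minus cortex was −1.12. For the others the average of cord and cortex was compared with muscle. The average minus muscle was below 0 for Atxn2 (−0.47), S100a1 (−0.69), Atxn7l3b (−0.39), Dennd1a (−0.53), Rxra (−0.63), Cers1 (−0.95) and Shank3 (−0.50). It was above 0 for Ifi44 (1.12), Oasl2 (0.77), Gm4951 (1.70), Cxcl9 (2.47), Sqle (0.85), Hk1 (0.57), Asns (0.66), Atp6v1h (0.37) and Atp6v1a (0.48). These values also hold the change in muscle, so they are not the size of the change in cord and cortex. They are given relative to TMM scaling.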

How the results depend on the processing

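The average was called for 427 genes, the difference for 1, and 292 of the first moved the same way in both tissues; the cause of each shift below was not tested. Given in that order, total counts in place of TMM factors gave 205, 0 and 155 genes, no filter on low counts 104 for the average and 81 in both tissues, and a mean of at least 1 CPM 3 differences (Adam33, Tnfaip2, Tspan17). DESeq2 gave 1224, 144 and 510, RNA integrity (RIN) as a covariate 251, 0 and 187, and males only 0 differences. No difference was called with limma voom, without the sex term or with age as a covariate. Females only gave 10, 0 and 10, the libraries without mice older than 36 weeks 3, 0 and 3, those without the 4 cord libraries of conflicting labels 23, 0 and 21, and grouping by library name 0, 0 and 0. Leaving out the most variable library of each tissue, chosen after seeing the data, gave 122, 0 and 98. Leaving out 1 library at a time gave 120 (without treated cortex replicate 3) to 1147 (without treated cord replicate 1), 0 to 6, and 89 to 571. The average count also moved by over 1.5 times without vehicle cord replicates 1 (284), 3 (237), 4 (222), 5 (214) or 6 (214), treated cord 2 (216), 4 (150) or 5 (199), vehicle cortex 1 (264), 2 (274), 3 (764), 4 (247) or 5 (233), and treated cortex 4 (167) or 6 (251). The average minus muscle, 726 genes, became 1178 with total counts, 1252 with DESeq2 and 461 (without vehicle muscle replicate 3) to 939 with 1 muscle library left out; cord and cortex libraries were not left out of it. No label ties equal replicate numbers to a shared animal or batch, and not every pair deviated together: same-numbered cord and cortex libraries correlated at −0.02 to 0.16, and 5 of 12 libraries matched their own number best. Same-numbered cord and cortex libraries differed in labelled age for vehicle 2 and 4 and for treated 2, 3 and 4. By these ages, those pairs were not from the same mouse. With a replicate block the counts were 250, 0 and 191, and with the block by duplicateCorrelation 182, 2 and 157. Named genes called on average kept the call in 46 and lost it in 19 with the first, and in 37 and 28 with the second; of the GTPases 5 and 5 were called, of class II 3 and 3, of glycolysis 7 and 6 and of cholesterol synthesis 2 and 0.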

Other observations

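The median changes of oligodendrocyte and mitochondrial transcripts had opposite signs in cord and cortex, without any gene being called on average. For 15 genes of myelin and oligodendrocytes the median was 0.12 in cord and −0.27 in cortex, and all 15 differences lay above 0. For the 13 genes of the mitochondrial genome the medians were 0.36 and −0.05, again with 13 differences above 0. Immediate early genes, 15 in number, ran the other way, with medians of −0.09 and 0.27 and 13 differences below 0. Over all genes tested the median difference was 0.01, and no gene of these lists passed the threshold for the difference. An unadjusted p under 0.05 for the difference was reached by 0 of the 15 myelin genes. It was reached by 6 of the 13 mitochondrial and 0 of the 15 immediate early genes. The summed myelin level ranged from 2198 to 6075 CPM within vehicle cortex alone, so shared signs in that list do not establish a difference.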
